A study of Mus musculus with 10 samples.

Results

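A growing mouse oocyte keeps much of its mRNA in store, and the proteins that coat, silence and keep this mRNA are the subject here, followed in oocytes with and without Patl2. The 9 genes described were Ybx2, Ybx1 and Ybx3 (Y-box proteins), Ddx6, Lsm14a, Lsm14b and Eif4enif1 (a complex that silences mRNA) and Zar1 and Zar1l (zygote arrest proteins). They were chosen by name. Each was read from the transcript cluster annotated to it with the highest mean over all 10 arrays, and since each of the 9 had exactly 1 cluster among the 65956 tested, no choice between clusters had to be made. A transcript cluster is the array's unit for a gene, and its value is a log2 expression level, so that a difference of 1 means a 2-fold change.

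The study hybridised RNA of pooled mouse oocytes to Affymetrix Clariom D arrays. There were 2 wild-type (WT) and 3 Patl2-knock-out (Patl2-/-) samples at the germinal vesicle (GV) stage, before meiosis resumes, and 2 WT and 3 Patl2-/- samples at metaphase II (MII), when the oocyte is mature. All females received 5 units of PMSG, a gonadotropin that makes follicles grow. GV oocytes were taken 44 h later, and for MII oocytes 5 units of hCG, which triggers ovulation, were given 48 h after PMSG, with collection 12 h after hCG. The GV pools held 20 to 32 oocytes and the MII pools 28 to 46, each freed of follicular cells with hyaluronidase and a pipette. These times and pool sizes follow the sample labels. The paper gives a slightly later collection after hCG and a larger smallest MII pool. The Patl2-/- mice came from the tm1a allele of EUCOMM on the C57BL/6NTac background, crossed with EIIa-Cre mice, in which Cre acts in the early embryo, so that an exon of Patl2 was lost throughout the animal and not only in the oocyte. The sources used here do not say whether the stage of each oocyte in an MII pool was checked. The paper reports that, after full stimulation, a larger share of Patl2-/- than of WT oocytes was released before reaching MII. The part of this in the MII differences was not tested. The labels call the samples biological replicates but do not say which animals gave each pool, so the p-values below measure the spread between these pools. For pooled cells, fewer cells of a kind and less RNA per cell cannot be told apart, and the normalization of the arrays makes every level relative to the rest of the RNA on that array.

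In a fully grown oocyte transcription stops, and the mRNAs made during growth are held without translation until maturation or after fertilisation calls for them. YBX2, also called MSY2, is the germ-cell Y-box protein and coats mRNA in the cytoplasm. DDX6 is an RNA helicase that, together with the LSM14 proteins, the eIF4E-binding protein 4E-T (encoded by Eif4enif1) and Pat1 proteins, represses translation in oocytes and in the cytoplasmic bodies of other cells. ZAR1 and ZAR1L are zinc-finger RNA-binding proteins of the ovary. PATL2 belongs to the Pat1 family, which is why the study of a Patl2-/- oocyte bears on these genes. In secondary follicle oocytes, however, the paper saw tagged Patl2 protein in no clear overlap with Cpeb1, Ddx6 or Msy2. It proposes that Patl2 may act in a separate pathway.

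RefSeq promoters (build GRCm38.p6), running from 250 bases before to 50 bases after the gene's most upstream start site, were on hand for 8 of the 9 genes, Ddx6 being the exception. Those of Ybx2 and Ybx1 are shown because the Y-box family is named after the Y box, an inverted CCAAT box. The capitals mark CCAAT or its reverse complement ATTGG. The Ybx2 window lies on the plus strand at chr11:69935649-69935948 and the Ybx1 window on the minus strand at chr4:119294464-119294763.
Ybx2: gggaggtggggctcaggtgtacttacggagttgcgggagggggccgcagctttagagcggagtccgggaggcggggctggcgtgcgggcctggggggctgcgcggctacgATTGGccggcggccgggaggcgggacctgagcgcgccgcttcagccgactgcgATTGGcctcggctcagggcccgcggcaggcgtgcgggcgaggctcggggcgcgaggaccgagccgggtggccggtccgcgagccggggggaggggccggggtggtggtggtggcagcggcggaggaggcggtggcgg
Ybx1: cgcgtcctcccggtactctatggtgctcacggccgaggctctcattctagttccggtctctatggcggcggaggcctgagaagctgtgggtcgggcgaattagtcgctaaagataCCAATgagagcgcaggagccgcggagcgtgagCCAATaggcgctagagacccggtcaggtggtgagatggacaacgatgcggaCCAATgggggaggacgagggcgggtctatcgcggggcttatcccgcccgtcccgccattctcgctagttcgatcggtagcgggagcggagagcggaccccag
The Ybx2 window holds 2 such matches, both inverted, and the Ybx1 window 3, all direct. Of all 27026 promoters of that length, 38% hold at least 1 match, 12.1% at least 2 and 3.57% at least 3. The Lsm14b, Eif4enif1 and Zar1l windows hold 1 each, and the Ybx3, Lsm14a and Zar1 windows hold 0. The Lsm14a window is shown because Lsm14a was, with Ybx2, a gene called between stages, and it has no capitals because it holds no match. It lies on the minus strand at chr7:34389656-34389955.
Lsm14a: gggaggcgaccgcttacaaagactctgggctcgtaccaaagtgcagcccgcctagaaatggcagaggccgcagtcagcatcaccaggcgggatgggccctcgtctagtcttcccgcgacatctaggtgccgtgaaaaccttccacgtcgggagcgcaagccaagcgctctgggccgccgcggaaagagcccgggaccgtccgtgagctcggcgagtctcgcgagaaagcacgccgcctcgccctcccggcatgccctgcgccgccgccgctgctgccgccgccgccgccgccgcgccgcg

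The windows of the ZAR genes were searched for the E-box (CANNTG), the letters read by FIGLA and other helix-loop-helix factors, and for TAATTG, the letters read by the oocyte homeobox factor NOBOX, on both strands. The capitals mark these matches, none of which overlap. The Zar1 window is on the minus strand at chr5:72581035-72581334 and the Zar1l window on the minus strand at chr5:150518110-150518409.
Zar1: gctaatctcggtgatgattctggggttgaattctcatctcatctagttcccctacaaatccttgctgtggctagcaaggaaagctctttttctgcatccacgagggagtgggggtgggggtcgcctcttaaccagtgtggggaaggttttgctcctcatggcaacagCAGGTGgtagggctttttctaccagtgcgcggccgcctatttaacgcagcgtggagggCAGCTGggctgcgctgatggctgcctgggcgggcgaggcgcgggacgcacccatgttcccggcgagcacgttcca
Zar1l: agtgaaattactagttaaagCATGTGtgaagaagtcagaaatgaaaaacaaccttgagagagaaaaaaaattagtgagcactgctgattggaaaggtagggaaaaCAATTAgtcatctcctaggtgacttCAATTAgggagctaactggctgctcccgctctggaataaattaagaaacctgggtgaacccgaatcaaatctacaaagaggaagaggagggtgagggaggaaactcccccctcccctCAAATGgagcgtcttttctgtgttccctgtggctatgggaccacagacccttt
Each holds 2 E-boxes, and 39.5% of all promoters hold 2 or more. Only Zar1l among the 8 windows holds TAATTG, in 2 copies on the reverse strand, where 0.622% of all promoters hold 2 or more. Its base composition also differed from that of the other windows, with 44.3% G and C against 58.7% for Zar1 and 78% for Ybx2, the median of all promoters being 52.7%. These matches describe the letters only.

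The knock-out was visible in Patl2 itself. Its level was 11.70 and 10.92 in WT GV oocytes and 7.71, 7.36 and 8.07 in Patl2-/- GV oocytes, and it was 8.73 and 8.55 in WT MII and 6.44, 6.10 and 6.59 in Patl2-/- MII oocytes. Patl2 was thus lower in every knock-out pool, by 3.60 ± 0.27 (SE) at GV (limma, adjusted p = 0.0126) and by 2.26 ± 0.27 at MII (limma, adjusted p = 0.0208). With 1 array left out the GV call was lost without KO GV replicate 1 (adjusted p = 0.0539), KO standing for Patl2-/-, and the MII call without KO MII replicate 1 (0.0514), 2 (0.0711) or 3 (0.0662) or WT MII replicate 1 (0.139) or 2 (0.0608), while the difference stayed at or below -3.21 and -2.13. In Patl2-/- MII oocytes 1 of the 3 arrays was not above the level that 90% of the negative control probes do not exceed (6.142 to 6.455 by array) and the other 2 were close to it. With the higher of the level and this limit taken on each of these arrays, Patl2 was at least 4.53-fold lower than in WT MII oocytes. As arrays have no read depth, precision here rests on the 10 arrays, of which any 2 in a group correlated at 0.9889 or more over all clusters. Of 12 oocyte markers 11 were measured, and all 11 had a group mean above 8. The summed level of the oocyte list was 160.16 to 161.01 in WT GV, 160.51 to 161.16 in Patl2-/- GV, 151.39 to 152.01 in WT MII and 154.14 to 155.94 in Patl2-/- MII, so that it was lower at MII and, at MII, higher in Patl2-/-, where 1 of the 11 markers was called and 6 had an unadjusted p under 0.05. Of 18 granulosa and cumulus markers measured, 11 stayed on all 10 arrays under that limit, Inha and Nr5a2 had a group mean above 8, and the summed level of the list ran from 97.88 to 105.48 in WT GV, 105.05 to 105.79 in Patl2-/- GV, 91.79 to 93.62 in WT MII and 94.65 to 104.61 in Patl2-/- MII. Of 12 markers of theca, stroma, vessel and blood cells, 11 did so. The 4 hybridisation controls read higher in Patl2-/- arrays than in WT arrays at both stages, with GV means of 11.711 to 11.979 in Patl2-/- and 11.254 to 11.461 in WT, and MII means of 11.583 to 11.685 in Patl2-/- and 11.337 to 11.392 in WT. The part of these controls and of the marker lists in the results was not tested.

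Loss of Patl2 changed the level of none of the 9 storage genes by a call at either stage. At GV the differences between Patl2-/- and WT ran from -0.28 (Ybx2) to 0.49 (Ddx6), at MII from -0.28 (Lsm14a) to 0.38 (Ddx6), and 0 of 9 passed an adjusted p of 0.05 in either comparison (limma, GV adjusted p of 0.555 to 1, MII adjusted p of 0.423 to 0.95), with 0 of 9 also at an unadjusted p under 0.05. Over all clusters 0.121% were called at GV and 0.829% at MII, so that a count of 0 among 9 genes is what these shares alone would mostly give. The sizes say more than the count. The 95% interval of the difference lay within a 2-fold change in either direction for 8 of 9 genes at GV and for the same number at MII, against 91.4% and 90.6% of all clusters, and against 76.8% and 73.5% of the 16316 clusters with a mean level of at least 6. The gene whose interval reached further was Ddx6 at both stages.

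**Figure D1:**
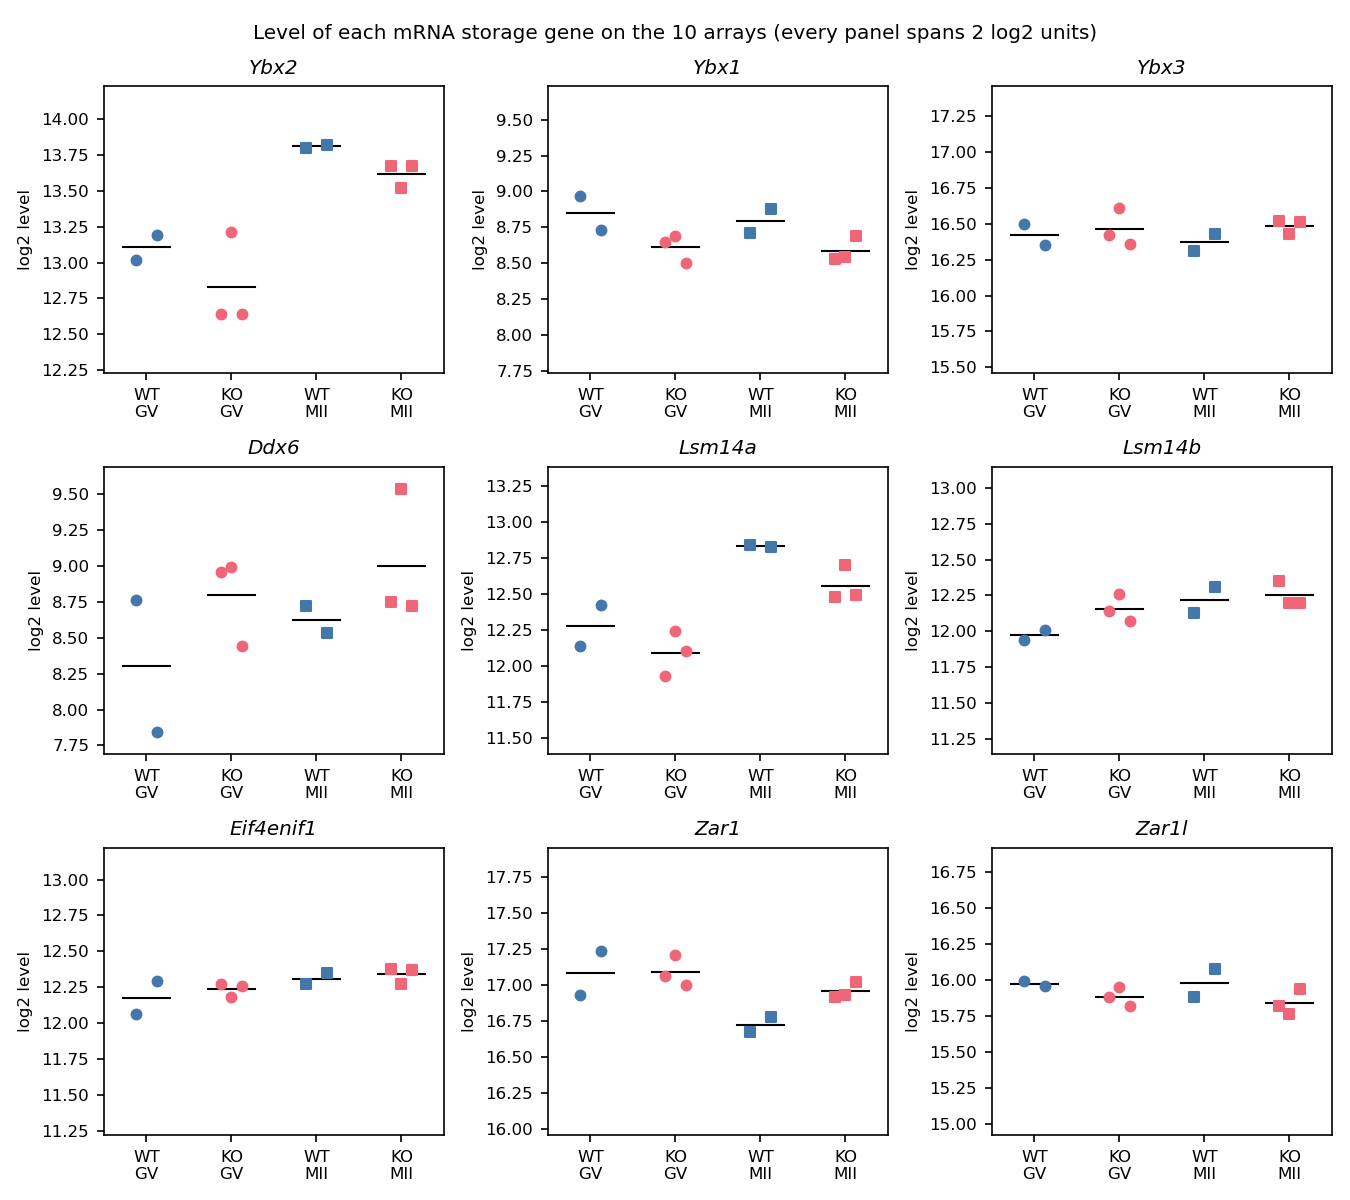
Log2 level (vertical axes, each spanning 2 units) of the 9 genes on the 10 arrays, as points for single arrays (circles GV, squares MII, blue WT, red Patl2-/-) and bars for group means. Ybx2 and Lsm14a sit higher at MII than at GV in both genotypes, and Ddx6 has the widest scatter within groups, from 7.84 to 8.76 in WT GV.

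Among the Y-box genes, Ybx2 read 13.02 and 13.19 in WT GV oocytes and 12.64, 13.21 and 12.64 in Patl2-/- GV oocytes. Its levels at MII were 13.80 and 13.82 in WT and 13.67, 13.52 and 13.67 in Patl2-/-. At GV the genotypes overlapped through 1 knock-out pool that was as high as WT, whereas at MII each knock-out pool lay below both WT pools. The difference was -0.28 ± 0.17 (SE) at GV (95% interval -0.67 to 0.11) and -0.19 ± 0.17 at MII (-0.58 to 0.20). Ranked by mean, WT MII was highest at 13.81, followed by Patl2-/- MII, WT GV and Patl2-/- GV, and the neighbours within a stage did not differ by a call.

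Ybx1, the Y-box protein of most cell types, read 8.97 and 8.73 in WT GV and 8.65, 8.69 and 8.50 in Patl2-/- GV oocytes. At MII it read 8.71 and 8.88 in WT and 8.53, 8.54 and 8.69 in Patl2-/-. It was the only one of the 9 genes whose knock-out pools lay below the WT pools at both stages, which held for 3.37% of all clusters and for 8.99% of those with a mean level of at least 6. The difference was small, -0.24 ± 0.11 at GV and -0.21 ± 0.11 at MII. Averaged over both stages it was -0.22 ± 0.07 (95% interval -0.40 to -0.05), or 1.17-fold lower, and did not pass the correction (limma, unadjusted p = 0.0176, adjusted p = 0.212). All 4 group means of Ybx1 lay between 8.59 and 8.85.

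Ybx3, the other Y-box gene, showed no called difference on the deposited values. Its arrays ran from 16.31 to 16.61, with differences of 0.04 ± 0.09 at GV and 0.12 ± 0.09 at MII, and its genotypes overlapped at both stages. Like the zygote arrest genes it was read near the top of the arrays' range, where compression was not tested. The sign of the GV difference turned when WT GV replicate 2 or KO GV replicate 2 was left out, with -0.04 in each case.

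Of the silencing complex, Ddx6 was the least precisely measured. The helicase read 8.76 and 7.84 in WT GV, 8.96, 8.99 and 8.44 in Patl2-/- GV, 8.72 and 8.53 in WT MII and 8.75, 9.54 and 8.72 in Patl2-/- MII oocytes. The low WT GV pool and the high Patl2-/- MII pool stood apart from their groups, and the genotypes overlapped at GV and met at 8.72 at MII. That WT GV pool also had the lowest summed granulosa and cumulus marker level of the GV arrays (97.88). The Patl2-/- MII pool had the highest of the MII arrays (104.61). Whether this bears on Ddx6 was not tested. Its differences of 0.49 ± 0.34 (95% interval -0.28 to 1.27) and 0.38 ± 0.34 (-0.40 to 1.15) leave room for a 2-fold rise and for no change. With 1 array left out the GV difference ran from 0.03 (without WT GV replicate 2) to 0.96 (without WT GV replicate 1), and the MII difference from 0.11 (without KO MII replicate 2) to 0.52 (without KO MII replicate 3).

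Lsm14a and Lsm14b encode paralogous partners of DDX6, and LSM14B is the form enriched in the mouse oocyte. Lsm14a read 12.14 and 12.42 in WT GV and 11.93, 12.24 and 12.10 in Patl2-/- GV, then 12.84 and 12.83 in WT MII and 12.48, 12.70 and 12.49 in Patl2-/- MII oocytes. Its genotypes overlapped at GV and were apart at MII, with Patl2-/- lower by 0.28 ± 0.12 on the log2 scale. Averaged over both stages the difference was -0.23 ± 0.09 (limma, unadjusted p = 0.0286, adjusted p = 0.268), and with Ybx1 it made up the 2 genes under an unadjusted p of 0.05 in that comparison, as were 14.4% of all clusters and 35.8% of those with a mean level of at least 6. By adjusted p 0 of the 9 genes and 1.89% of all clusters were called there.

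Lsm14b read 11.94 and 12.01 in WT GV and 12.14, 12.26 and 12.07 in Patl2-/- GV, with every knock-out pool above WT by a difference of 0.18 ± 0.09 (95% interval -0.03 to 0.40). At MII it read 12.13 and 12.31 in WT and 12.35, 12.20 and 12.20 in Patl2-/-, and the genotypes overlapped. Eif4enif1, whose 4E-T protein links the complex to the cap-binding protein, lay between 12.06 and 12.38 on all arrays, with differences of 0.06 ± 0.09 at GV and 0.03 ± 0.09 at MII. The sign of the Eif4enif1 difference turned without WT GV replicate 1 (to -0.06 at GV) and without WT MII replicate 1 (to -0.01 at MII).

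The zygote arrest genes were near the top of the arrays' range, which ended between 17.986 and 18.298, and whether their differences were compressed there was not tested. Zar1 read 16.93 and 17.24 in WT GV, 17.06, 17.21 and 17.00 in Patl2-/- GV, 16.67 and 16.78 in WT MII and 16.92, 16.93 and 17.02 in Patl2-/- MII oocytes. The genotypes overlapped at GV, with a difference of 0.01 ± 0.11 whose sign turned under a second quantile normalization and under median centring (-0.02 in each). At MII every knock-out pool lay above WT, by 0.23 ± 0.11 (95% interval -0.02 to 0.48). Zar1l read 15.99 and 15.96 in WT GV and 15.88, 15.95 and 15.82 in Patl2-/- GV, so that the knock-out pools were lower by 0.09 ± 0.09 on the log2 scale, and at MII, where its genotypes overlapped, the difference was -0.14 ± 0.09.

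Counted over the group, Patl2-/- pools lay wholly below WT for 2 of 9 genes at GV (Ybx1 and Zar1l, against 9.17% of all clusters) and for 3 of 9 at MII (Ybx2, Lsm14a and Ybx1, against 16.2%). They lay wholly above WT for 1 gene at GV (Lsm14b, against 11.8%) and 1 at MII (Zar1, against 11.7%). Of clusters with a mean level of at least 6, 18.4% at GV and 25.9% at MII lay wholly below. Wholly above lay 13.6% at GV and 21% at MII. The counts among 9 genes do not stand apart from these shares. The GV and MII differences had the same sign in 9 of 9 genes, against 58.1% of all clusters. The share among clusters with a mean level of at least 6 was not computed. For Zar1, Ybx3 and Eif4enif1 the sign depended on the setting as given above. For Lsm14b at MII it turned without WT MII replicate 1 (-0.06) or KO MII replicate 1 (-0.02). A direct test of whether the knock-out effect differed between stages called 0 of 9 genes (limma, adjusted p from 0.882 to 0.986, with 0 of 9 at an unadjusted p under 0.05) and 0% of all clusters. Its values ran from -0.15 for Lsm14b to 0.22 for Zar1.

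**Figure D2:**
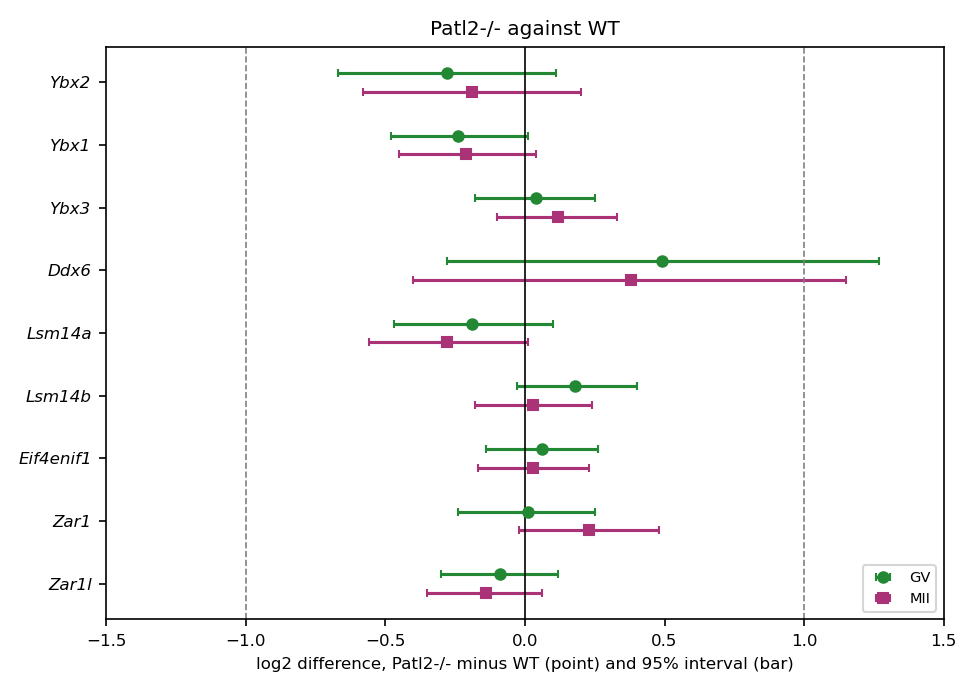
Log2 difference between Patl2-/- and WT (horizontal axis) for the 9 genes at GV (circles) and MII (squares), with bars for the 95% intervals of the limma fit over 10 arrays and dashed lines at a 2-fold change. All intervals but those of Ddx6 stay between the dashed lines, and at each stage all 9 cross 0.

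Between GV and MII the level of 2 of the 9 genes, Ybx2 and Lsm14a, was called higher, both in Patl2-/-. As 250 pg of RNA was labelled from every pool, these are levels per unit of RNA and not per oocyte. The paper reports less RNA per oocyte at MII than at GV, assuming an even recovery of RNA. A rise given here is therefore a rise relative to the other RNA and need not be one per oocyte. In Patl2-/- oocytes Ybx2 rose by 0.79 ± 0.15 (SE) on the log2 scale, or 1.73-fold (95% interval 0.45 to 1.14 on the log2 scale, limma, adjusted p = 0.013), and Lsm14a rose by 0.46 ± 0.11, or 1.38-fold (0.21 to 0.72, adjusted p = 0.0342). They were the 2 of 9 genes called there, against 10.5% of all clusters and 33.3% of those with a mean level of at least 6, as all 9 have. In WT oocytes the differences were of like size, 0.70 ± 0.19 for Ybx2 (adjusted p = 0.0651) and 0.55 ± 0.14 for Lsm14a (adjusted p = 0.0501), yet neither passed the threshold, so that 0 of 9 genes were called in WT against 7.15% of all clusters and 23.7% of those at or above 6, with 4 of 9 having an unadjusted p under 0.05 (18% and 44.7%). The difference between the 2 genotypes in this change was 0.09 ± 0.24 for Ybx2 and -0.09 ± 0.18 for Lsm14a, both with an interval on either side of 0 (-0.46 to 0.64 and -0.49 to 0.31).

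The single arrays went in the same direction. Every MII pool lay above every GV pool for both genes in both genotypes. In WT oocytes this held for 3 of the 9 genes (Ybx2, Lsm14a and Lsm14b, against 25.1% of all clusters) and in Patl2-/- oocytes for 2 (against 10.3%). Of clusters with a mean level of at least 6, as all 9 have, it held for 28.9% and 22.2%. The counts were thus near these shares. The Ybx2 call in Patl2-/- was lost without KO MII replicate 1 (adjusted p = 0.0517) or replicate 3 (0.0509). The Lsm14a call was lost in 7 of 10 such fits, namely without KO GV replicate 1 (0.102) or 3 (0.0847), WT MII replicate 1 or 2 (0.0603 in each), or KO MII replicate 1 (0.069), 2 (0.107) or 3 (0.0735).

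Lsm14b and Zar1 moved in opposite directions in WT oocytes without passing the correction. Lsm14b was 0.25 ± 0.10 higher at MII (limma, unadjusted p = 0.0404, adjusted p = 0.245) and Zar1 0.36 ± 0.12 lower (unadjusted p = 0.0149, adjusted p = 0.13). Zar1 was the 1 gene of 9 whose WT MII pools lay below all WT GV pools, against 20.1% of all clusters. Of those with a mean level of at least 6, 37.6% did so. In Patl2-/- oocytes these differences were 0.09 ± 0.08 and -0.14 ± 0.10, with overlapping stages. For Zar1 the WT mean fell from 17.08 to 16.72 while that of Patl2-/- went from 17.09 to 16.95, and the difference between the genotypes in this change, 0.22 ± 0.15, was not called (adjusted p = 0.882). For Ybx1, Ybx3, Eif4enif1 and Zar1l all stage differences of the deposited values lay between -0.06 and 0.14, and those of Ddx6 were 0.33 ± 0.37 in WT and 0.21 ± 0.30 in Patl2-/-.

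**Figure D3:**
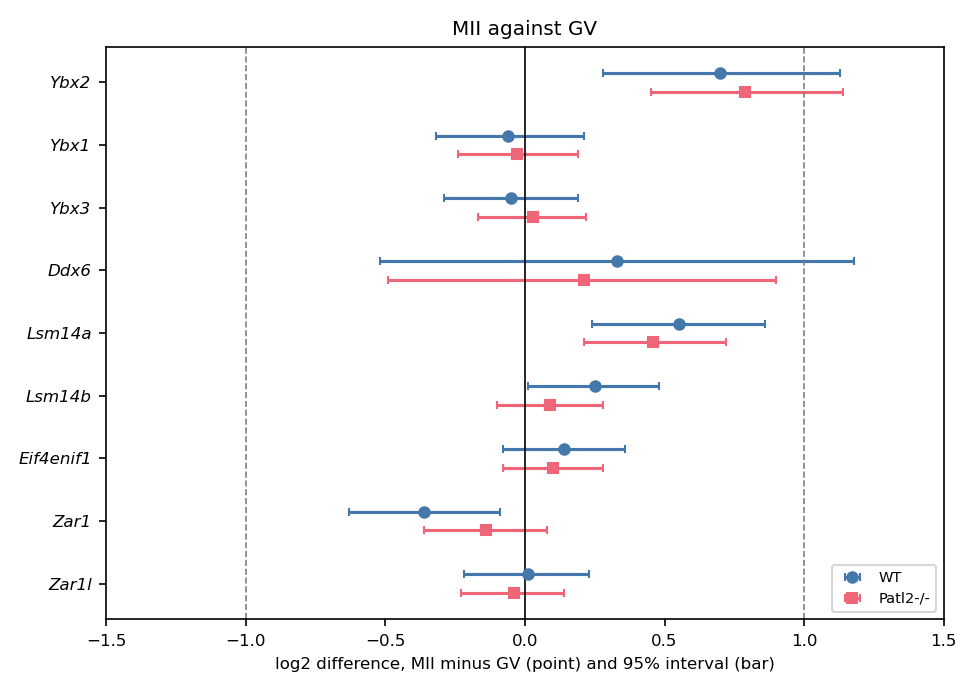
Log2 difference between MII and GV (horizontal axis) for the 9 genes in WT (circles) and Patl2-/- (squares), with bars for the 95% intervals of the limma fit and dashed lines at a 2-fold change. Ybx2 and Lsm14a lie to the right of 0 in both genotypes, and the WT point of Zar1 lies at -0.36.

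The size of the stage differences depended on the scaling. A second quantile normalization of the deposited values, which forces all arrays to 1 distribution, moved the median MII minus GV difference of the 2497 clusters with a mean level of at least 12 from 0.01 to 0.42 in WT and from -0.02 to 0.34 in Patl2-/-, while the median of all clusters moved only from 0.02 to 0.03 and from -0.01 to 0.03. Of the clusters called between stages in WT, 27.4% were higher at MII as deposited and 62.3% after it, and in Patl2-/- 32.1% and 63.3%. Ybx2 and Lsm14a stayed higher at MII, at 1.08 and 1.05 in WT and at 1.12 and 0.87 in Patl2-/-, all 4 past the threshold. Lsm14b and Eif4enif1 were then called higher in both genotypes (0.79 and 0.67 in WT, 0.53 and 0.53 in Patl2-/-), as was Zar1l (0.40 in WT, adjusted p = 0.021, and 0.33 in Patl2-/-, adjusted p = 0.0141), and Ybx3 was called higher in Patl2-/- (0.42, adjusted p = 0.0122). The Zar1 difference in WT was 0.01 in place of -0.36. Under cyclic loess and median centring Ybx2, Lsm14a, Lsm14b and Zar1 kept their directions. The direction of Ybx2 and Lsm14a therefore did not turn with the scaling, whereas that of Zar1 did.

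Genes of proteins that act at the mRNA cap and tail, or belong to the same families, were read beside this complex. Of 20 listed partners (the CPEB proteins, the Pat1 proteins, cap-binding proteins, their inhibitors and the decapping machinery) 19 were measured under their own name. Between genotypes Patl2, the gene targeted in these mice, was the 1 of 19 called at GV. Called there were 0.121% of all clusters and 0.38% of those with a mean level of at least 6. At MII 2 of 19 were called, Patl2 being 1 of them, against 0.829% and 2.97%. At MII Eif4ebp2, an inhibitor of the cap-binding protein eIF4E, was also lower, with 8.50 and 8.43 in WT and 7.69, 7.89 and 7.76 in Patl2-/- oocytes, a difference of -0.68 ± 0.10 (limma, adjusted p = 0.0305). Each knock-out pool lay below both WT pools. The call was lost in 6 of the 10 fits that left out 1 array, those without any of the 5 MII arrays or KO GV replicate 3, the adjusted p rising to 0.182 without WT MII replicate 1. It was also lost with trend and robust moderation (0.063), with only the compared arrays (0.101), with a replicate block (0.107) and with the Benjamini-Hochberg adjusted ANOVA (0.287). Dcp2, the decapping enzyme, was higher in Patl2-/- when averaged over both stages, by 0.42 ± 0.07 (adjusted p = 0.0361). Its call was lost in 9 of 10 such fits, all but that without KO MII replicate 3, with an adjusted p of up to 0.11 without WT MII replicate 2. The median difference of the 19 partners was 0.01 at GV and -0.02 at MII, beside 0.02 and -0.02 over all clusters.

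Between stages, Cpeb1, which binds the cytoplasmic polyadenylation element, fell in both genotypes, by 0.77 ± 0.18 on the log2 scale in WT (adjusted p = 0.0398) and by 0.95 ± 0.15 in Patl2-/- (adjusted p = 0.00437). Patl1, the other mammalian Pat1 gene, rose in both, by 0.72 ± 0.17 (adjusted p = 0.0464) and 0.66 ± 0.14 (adjusted p = 0.0221). The WT calls of Cpeb1 and Patl1 were the less stable, with 1 array left out. That of Cpeb1 was lost in 7 of 10 fits (without any of the 5 MII arrays, WT GV replicate 1 or KO GV replicate 3, adjusted p up to 0.201), and that of Patl1 in 9 of 10 (all but that without KO MII replicate 2, adjusted p up to 0.208). The Patl2-/- call of Patl1 was lost without KO GV replicate 1 (0.0785) or 2 (0.0573). It was also lost with only the compared arrays (limma, adjusted p = 0.0566) and with the Benjamini-Hochberg adjusted ANOVA (0.161). That ANOVA also lost the Patl2-/- call of Cpeb1 (0.0582). The WT call of Cpeb1 was also lost with a replicate block (limma, adjusted p = 0.0952), trend and robust moderation (0.053) and only the compared arrays (0.224). That of Patl1 was lost with the same settings (limma, adjusted p = 0.0533, 0.06 and 0.143), median centring (0.058) and array weights (0.0571). Both were lost with the Benjamini-Hochberg adjusted ANOVA (0.521 for Cpeb1 and 0.425 for Patl1). In WT oocytes Eif4e1b, the oocyte form of eIF4E, also rose, by 0.71 ± 0.11 (adjusted p = 0.00859, 0.0611 without WT MII replicate 1), and Eif4ebp1, another inhibitor of eIF4E, fell (adjusted p = 0.0351). Neither WT MII array of Eif4ebp1 was above the negative control limit, so the fall is given as at least 1.33-fold, from a measured mean of 6.70 to one of 6.08. The Eif4ebp1 call was lost in 6 of 10 such fits, those without WT GV replicate 2, either WT MII array, KO GV replicate 1 or 3 or KO MII replicate 3, with an adjusted p up to 0.169. Dcp1a, a cofactor of decapping, was 0.51 ± 0.14 higher at MII in WT without a call (limma, adjusted p = 0.0737). In Patl2-/- oocytes Dcp1a rose by 0.69 ± 0.11 (adjusted p = 0.00614). The difference between the genotypes in this change, 0.19 ± 0.18, was not called. With Patl2, which fell by 2.67 ± 0.30 in WT and was at least 2.38-fold lower at MII in Patl2-/- (adjusted p = 0.0108), where it neared the negative control limit, this made 2 of 19 higher and 3 lower in WT, and 2 higher and 2 lower in Patl2-/-, that is 5 and 4 of 19 against 7.15% and 10.5% of all clusters and 23.7% and 33.3% of those with a mean level of at least 6. The median difference of the list between stages was -0.02 in each genotype. After the second quantile normalization the falls of Cpeb1 (-0.42 and -0.54, adjusted p = 0.247 and 0.0511) and Eif4ebp1 (-0.37, adjusted p = 0.0903) no longer passed the threshold, while the rises of Patl1, Eif4e1b and Dcp1a did. With only the compared arrays the WT calls of Eif4e1b (limma, adjusted p = 0.152), Eif4ebp1 (0.191) and Patl2 (0.0888) were lost. The Benjamini-Hochberg adjusted ANOVA lost them too (0.438, 0.477 and 0.377), as well as the Patl2-/- call of Patl2 (0.0886). Trend and robust moderation lost that of Eif4ebp1 in WT (limma, adjusted p = 0.0536).

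**Figure D4:**
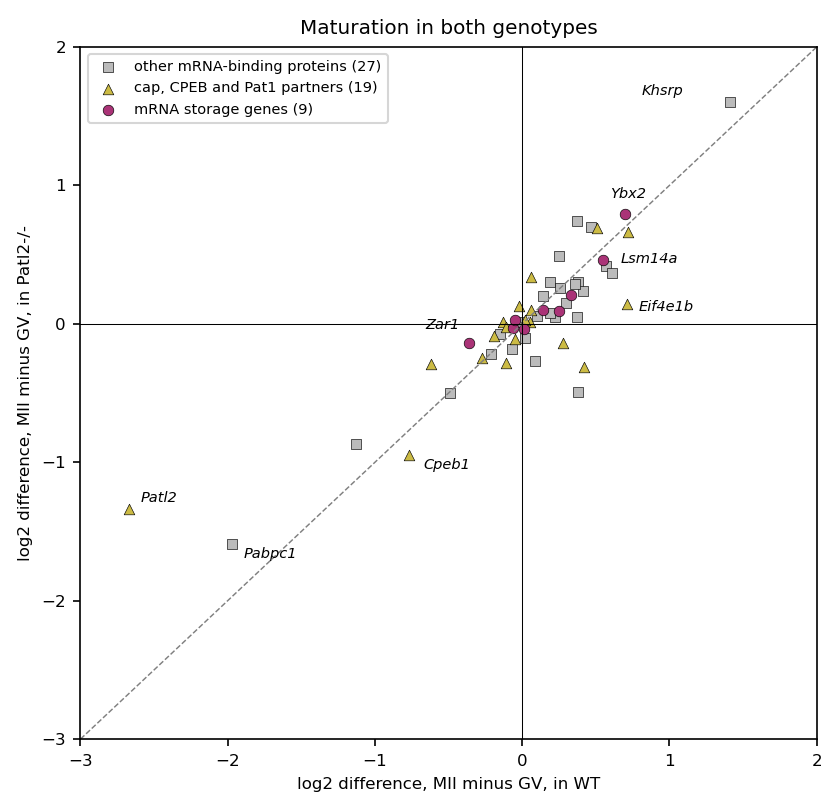
Log2 difference between MII and GV in WT (horizontal axis) and in Patl2-/- (vertical axis) for the 9 storage genes (circles), 19 cap, CPEB and Pat1 partners (triangles) and 27 other mRNA-binding proteins (squares), where the dashed line marks equal values. WT and Patl2-/- values come from different arrays, Ybx2 lies at 0.70 and 0.79, and the vertical position of Patl2 is limited by the negative control level that it neared in Patl2-/- MII oocytes.

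A wider list of 32 cytoplasmic mRNA-binding proteins had 27 measured under their own name. None was called between genotypes at GV or at MII. At each stage 7 of 27 had an unadjusted p under 0.05 (limma), against 9.23% of all clusters at GV and 12.3% at MII. Of clusters with a mean level of at least 6, 21.5% and 28.8% did so. Averaged over both stages 2 of 27 were called, both higher in Patl2-/-, against 1.89% of all clusters and 6.65% of those with a mean level of at least 6. Igf2bp3, an RNA-binding protein that stabilises mRNA, read 9.66 and 9.48 in WT GV against 10.17, 10.43 and 10.21 in Patl2-/- GV, and 9.93 and 10.03 in WT MII against 10.42, 10.58 and 10.54 in Patl2-/- MII oocytes. Its knock-out pools lay above WT at both stages, with a difference of 0.62 ± 0.07 (adjusted p = 0.0106) that kept its call with each array left out and lost it with a replicate block (0.63, adjusted p = 0.0568). Larp4, which binds poly(A) and its binding protein, was 0.44 ± 0.07 higher (adjusted p = 0.0203). That call was lost in 4 of 10 such fits, without WT GV replicate 2 (0.0705), WT MII replicate 1 (0.0684) or 2 (0.0681) or KO MII replicate 2 (0.0506).

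Between stages the list held larger movements than any of the 9 storage genes. Pabpc1, the poly(A)-binding protein of somatic cells, fell at MII by 1.97 ± 0.28 on the log2 scale in WT (adjusted p = 0.00496) and by 1.59 ± 0.23 in Patl2-/- (adjusted p = 0.00353). Pabpc1l, its oocyte and embryo counterpart, rose by 0.74 ± 0.14 in Patl2-/- oocytes (adjusted p = 0.0131). In WT the Pabpc1l difference was 0.37 ± 0.17 and was not called (limma, adjusted p = 0.315). Khsrp, which binds AU-rich elements, rose by 1.41 ± 0.24 in WT (adjusted p = 0.0101) and 1.60 ± 0.19 in Patl2-/- (adjusted p = 0.00138). Larp4 rose in both genotypes, by 0.57 ± 0.10 (adjusted p = 0.0127) and 0.42 ± 0.08 (adjusted p = 0.0151). The stress-granule gene Atxn2l rose by 0.70 ± 0.11 in Patl2-/- oocytes (adjusted p = 0.00469). In WT the Atxn2l difference was 0.47 ± 0.13 and was not called (limma, adjusted p = 0.0811). Fxr1, a relative of the fragile X protein, fell by 0.49 ± 0.11 in Patl2-/- oocytes (adjusted p = 0.0255), a fall that the second quantile normalization took to -0.01. Fxr1 was 0.38 ± 0.13 higher at MII in WT (unadjusted p = 0.0213, adjusted p = 0.164) and in Patl2-/- MII oocytes it differed from WT by -0.71 ± 0.12, at the threshold and not called (adjusted p = 0.05). In all, 2 of 27 were called higher and 1 lower in WT, and 4 higher and 2 lower in Patl2-/-, beside 7.15% and 10.5% of all clusters called and 23.7% and 33.3% of those with a mean level of at least 6. With only the compared arrays the WT calls of Pabpc1 (limma, adjusted p = 0.0985), Khsrp (0.171) and Larp4 (0.0686) were lost. So were the Patl2-/- calls of Fxr1 (0.0553) and Larp4 (0.0506). The Benjamini-Hochberg adjusted ANOVA lost the same WT calls (0.39, 0.473 and 0.242). In Patl2-/- it lost those of Pabpc1 (0.0706), Pabpc1l (0.117), Fxr1 (0.147) and Larp4 (0.126). With a replicate block that of Fxr1 was lost (limma, adjusted p = 0.0558). With 1 array left out, the WT call of Larp4 was lost without any of the 4 WT arrays (adjusted p up to 0.0685), that of Khsrp without WT GV replicate 1 (0.0555), and the Patl2-/- call of Fxr1 without KO GV replicate 2 or 3 or KO MII replicate 1 or 3 (up to 0.089).

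As a description of their pattern, the level of each gene over the 10 arrays was set against 8706 clusters with 1 gene name and a mean level of at least 6. Pearson's r was highest for Ybx2 with Mark4 (0.985) and Ice1 (0.979), and for Lsm14a with Smad1 (0.988) and Wwc2 (0.985). Zar1 ran most like Serp1 (0.969) and Rhox8 (0.967), Ddx6 most like Rab9 (0.957) and Creb1 (0.938), and Eif4enif1 most like Abcd4 (0.953) and Mtfr1l (0.947). For Lsm14b the nearest were H2ac10 (0.944) and Slc16a10 (0.914), for Ybx1 Tmem131 (0.936) and Scn8a (0.928), and for Ybx3 Lratd1 (0.923) and Ercc3 (0.915). Zar1l had the weakest matches, the pseudogenes Smt3h2-ps4 (0.899) and Smt3h2-ps2 (0.882). Among the 9 genes themselves, Ybx2 and Lsm14a ran together (0.92), as did Ybx1 and Zar1l (0.87), and Lsm14a ran against Zar1 (-0.62). All these values share the same 10 arrays and the stage difference between them, and the largest of 8706 correlations over 10 arrays is high by selection.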

How the data were processed

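Per the labels and the methods, 250 pg of RNA per pool was labelled with the Affymetrix WT pico kit and hybridised to 1-colour arrays. The deposited values are log2 levels that the authors made by RMA over the whole set (background correction, quantile normalization and probe summary) in Affymetrix Expression Console (version not given). The genome build of the clusters is not given in the sources used here. Gene names came from the platform annotation, in which 30638 clusters have 1 gene name, 2176 several and 33142 none.

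After 6732 control features were left out, 65956 clusters were fitted with limma 3.58.1 in R 4.3.3 (lmFit with 1 mean per group over all 10 arrays, contrasts, eBayes, prior df 2.021 beside 6 residual df), with two-sided tests, Benjamini-Hochberg adjustment over all clusters and calls at an adjusted p under 0.05. The step was also run on simulated data with known changes in Patl2-/- at MII, where only the mean estimate had to meet a limit. That run does not show how often differences as small as those of the storage genes would be called. Intervals are 95% moderated intervals, unadjusted for the number of genes. The alternatives were a replicate block, 3 other scalings, a minimum level of 6, clusters with 1 gene name, trend and robust moderation, array weights, each array left out, only the compared arrays, and the ANOVA of the methods.

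The 9 genes and both lists were chosen with earlier results of these data known. The text names the 9 genes, Patl2, every called gene of either list (up to 4 per direction and comparison) and the 2 clusters most correlated with each gene. Listed genes with no cluster under their name alone were not used here. Whether probes of Zar1 or Ybx1 also read their annotated pseudogenes, or those of Ddx6, Lsm14a, Eif4enif1 and Ybx3 their overlapping genes, was not tested. Figures were drawn with matplotlib 3.10.9.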

Additional observations from a re-analysis of the deposited data

Results flagged for a closer look

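Eif4e1b, the oocyte form of the cap-binding protein, was higher in all 3 Patl2-/- pools than in both WT pools at GV (13.84, 14.07 and 13.95 against 13.49 and 13.79) and lower in all 3 at MII (14.14, 14.08 and 14.05 against 14.38 and 14.32). The difference of the knock-out effect between MII and GV was -0.57 ± 0.15 (SE) and was not called (limma, unadjusted p = 0.00479, adjusted p = 0.589).

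Fxr2 showed the same reversal at a smaller size, with a difference of -0.17 ± 0.08 (limma, unadjusted p = 0.0784, adjusted p = 0.863). Its knock-out pools lay wholly above WT at GV and wholly below at MII. Of the 9 storage genes 0 had separate genotypes in opposite directions at the 2 stages, as 1.32% of all clusters did.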

How the results depend on the processing

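No alternative called any of the 9 genes between genotypes at GV, at MII or averaged, or for the difference between stages. For MII against GV in WT, where 0 were called, 1 was called with a replicate block and with clusters of 1 gene name, 2 with cyclic loess, a minimum level of 6 or array weights, 5 with a second quantile normalization and 0 to 2 with 1 array left out. For Patl2-/-, where 2 were called, 6 were called with the second quantile normalization, 1 with only the compared arrays, 0 with the ANOVA of the methods at its threshold or after Benjamini-Hochberg, and 0 to 2 with 1 array left out. The threshold of the methods also asks for a 2-fold change, which none of the 9 genes reached in any comparison, so there it could call none. An unadjusted ANOVA p under 0.05 was met between stages by Ybx2 and Lsm14a in Patl2-/- and by Ybx2 in WT. Between genotypes Zar1 met it at MII. Signs turned with the second quantile normalization for Zar1 at GV (-0.02), for MII against GV in WT for Ybx1 (0.27), Ybx3 (0.31) and Zar1 (0.01), and in Patl2-/- for Ybx1 (0.26), Zar1 (0.17) and Zar1l (0.33, adjusted p = 0.0141). They turned with cyclic loess for Ybx3 in WT (0.03) and Ybx1 in Patl2-/- (0.01), with median centring for Zar1 at GV (-0.02) and Zar1l in WT (-0.02), and with array weights for Zar1 at GV (-0.01). The cause was not tested. With the replicate block the calls of Dcp2 (adjusted p = 0.108) and Larp4 (0.0965) averaged over stages were lost. The Patl2 difference kept its size but lost its call with only the compared arrays (adjusted p = 0.246 at GV and 0.094 at MII) and with the Benjamini-Hochberg adjusted ANOVA (0.526 and 0.249).

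With 1 array left out, signs turned within these ranges of log2 differences between genotypes: at GV Eif4enif1 -0.06 to 0.18, Ybx3 -0.04 to 0.11 and Zar1 -0.14 to 0.16, at MII Eif4enif1 -0.01 to 0.07 and Lsm14b -0.06 to 0.12, and averaged Eif4enif1 -0.01 to 0.11. Between stages they did so in WT for Ddx6 (-0.13 to 0.79), Ybx1 (-0.18 to 0.07), Ybx3 (-0.13 to 0.02) and Zar1l (-0.09 to 0.11), and in Patl2-/- for Ddx6 (-0.06 to 0.35), Ybx1 (-0.08 to 0.01), Ybx3 (-0.02 to 0.10) and Zar1l (-0.09 to 0). Over the 70 differences of single genes followed, 593 of 674 values under other settings and 608 of 700 with 1 array left out kept their direction and side of the threshold. Averaging all clusters of a gene gave the same values, each gene having 1. The labels do not say whether samples of the same replicate number belong together. Correlations of same-numbered deviations ran from -0.13 to 0.25. They cannot decide this, because differently numbered samples were not compared in the same way. The block therefore stands as an alternative only. A lone WT array left after leaving 1 out was assumed to vary like the other groups.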
